A study of Mus musculus with 4 samples.

Results

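The interferon-stimulated genes are those a cell switches on when interferon, a cytokine released on viral infection, binds its receptors. A list of 35 of them, chosen with earlier results of these data known, was matched by gene symbol to the 59305 non-control spots of an Agilent mouse array. A symbol on the array was found for 34 of them, with 60 probes in all, and Ifitm2 had no probe under its symbol. The 28 genes with a probe well above background on both arrays of control or of PGE2 could be compared, out of 17660 genes or unnamed probes tested in the same way. Of the 28, 26 were measured above background on all 4 arrays, while Ifitm1 passed through the control arrays and Ifi44 through the PGE2 arrays.

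The arrays carry RNA of aortic vascular smooth muscle cells (VSMCs) grown from explants of adult mice of the C57BL/6J strain. All cells, controls included, have the genotype EP4-Tg, where EP4 (gene Ptger4) is one of the cell surface receptors of prostaglandin E2 (PGE2) and signals through cyclic AMP. The promoter and species of the transgene and the dose of PGE2 are not given in the sources used here. Control cultures received no treatment for 24 h and PGE2 cultures were treated for 24 h, with 2 cultures described as biological replicates in each group and 1 array per culture.

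Type I interferons signal through the receptor subunits Ifnar1 and Ifnar2 and the kinases Jak1 and Tyk2 to a complex that holds Stat2 and Irf9 and binds a DNA element called the ISRE. Interferon gamma acts through Ifngr1 and Ifngr2, and its signal reaches another element, called GAS. The induced proteins sense viral RNA, degrade it, block translation and entry, tag proteins with the ubiquitin-like Isg15, and include Stat2, Irf9 and Irf7 themselves, so that the pathway feeds forward, while Usp18 and the Socs proteins restrain it. Many of the genes are also transcribed at a basal level in cells that see no added interferon.

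No member passed the test of PGE2 against control (0 higher and 0 lower of 28 by limma with Benjamini-Hochberg adjustment over all tested genes at 0.05, where 0.668% of all tested genes passed, 0.396% as higher and 0.272% as lower). At an unadjusted p under 0.05, 4 were lower (Ifitm1, Ifit2, Ifit3 and Mx2) and 1 was higher (Gbp3), against 10.5% and 7.31% of all tested genes. Ifitm1 passed the filter through control alone, where it is high, and was not above background on PGE2 1. It is also in the counts of lower members below. The fitted change was below 0 in 22 of the 28 (78.6%, against 52.7% of all tested genes), with a median of -0.33 on the log2 scale against -0.028 over all tested genes. On the authors' own scale, which shifts the median of all genes to 0.23, 16 of the 28 were below 0. The members' median was -0.54 without control replicate 1, -0.21 without control replicate 2 and -0.17 without PGE2 replicate 1. In 11 members both PGE2 arrays lay below both control arrays (39.3%, background 28.3%) and in 3 both lay above (10.7%, background 24.0%). These shares describe genes that were listed with earlier results of these data known and that can vary together.

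Values below are log2 intensities relative to the 75th percentile of the array, so that 0 is the level of a spot at that percentile. Changes are PGE2 minus control, followed by their limma standard error (n = 2 per group). Levels of different probes are not comparable. In these bulk samples fewer cells of a type and less RNA per cell cannot be told apart. Of 9 smooth muscle markers, 5 were above background on all 4 arrays and Myocd was on none, and their summed signal was 410 to 717 in control and 129 to 173 in PGE2, in units of the 75th percentile. Of 6 macrophage markers, 4 were above background on all arrays and the defining genes Adgre1 and Lyz2 on none, with summed signals of 5.72 to 5.77 in control and 6.73 to 9.8 in PGE2. Fibroblast markers summed to 164 to 269 in control and 92.6 to 96.6 in PGE2, with 5 of 6 above background on all arrays and Dpt on none. The part of these marker lists in the values below was not tested.

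Promoter letters are shown here because they hold the elements through which the pathway is known to act. The 5 shown were picked after the values were seen, among members whose matched letters lie before the start site and outside annotated genes. The 4 of them that were tested had changes below 0, though that of Irf1 was -0.019 and its second kept probe gave 0.11. RefSeq promoter windows of assembly GRCm38.p6, from 250 bases before to 50 after a start site, were matched to 28 of the 35 genes. The ISRE core was searched as GAAANNGAA on both strands and GAS as TTCNNNGAA, which reads the same on both strands and can overlap the ISRE core. An ISRE core stood in 17 of the 28 genes' windows, against 9.76% of all 27025 genes in the table, and GAS in 7 of 28, against 9.55%. Stretches upstream of 5 start sites follow, 5′ to 3′ on the strand of the gene, with the ISRE core in capitals, or GAS in the case of Irf1.
Isg15, chr4:156200863-156200921, minus strand: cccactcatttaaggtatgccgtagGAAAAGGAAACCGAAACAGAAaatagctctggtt
Bst2, chr8:71537569-71537627, minus strand: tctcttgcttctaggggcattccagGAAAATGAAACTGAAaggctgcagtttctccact
Gbp2, chr3:142620580-142620638, plus strand: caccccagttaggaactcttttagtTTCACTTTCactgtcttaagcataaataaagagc
Oas3, chr5:120777701-120777759, minus strand: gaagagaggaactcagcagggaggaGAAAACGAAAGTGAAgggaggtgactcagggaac
Irf1, chr11:53769899-53769957, plus strand: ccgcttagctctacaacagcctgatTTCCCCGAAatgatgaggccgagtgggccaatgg
In Isg15, 3 overlapping core matches began 78, 72 and 66 bases before the start site, and in Bst2 2 began at 130 and 124, overlapping a GAS match at 136. Of 14 tested genes with a core match the change was below 0 in 8 (median -0.20), and of 9 tested genes with a window but no match in 9 (median -0.34). A match is a run of letters and not a measured binding site.

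**Figure D1:**
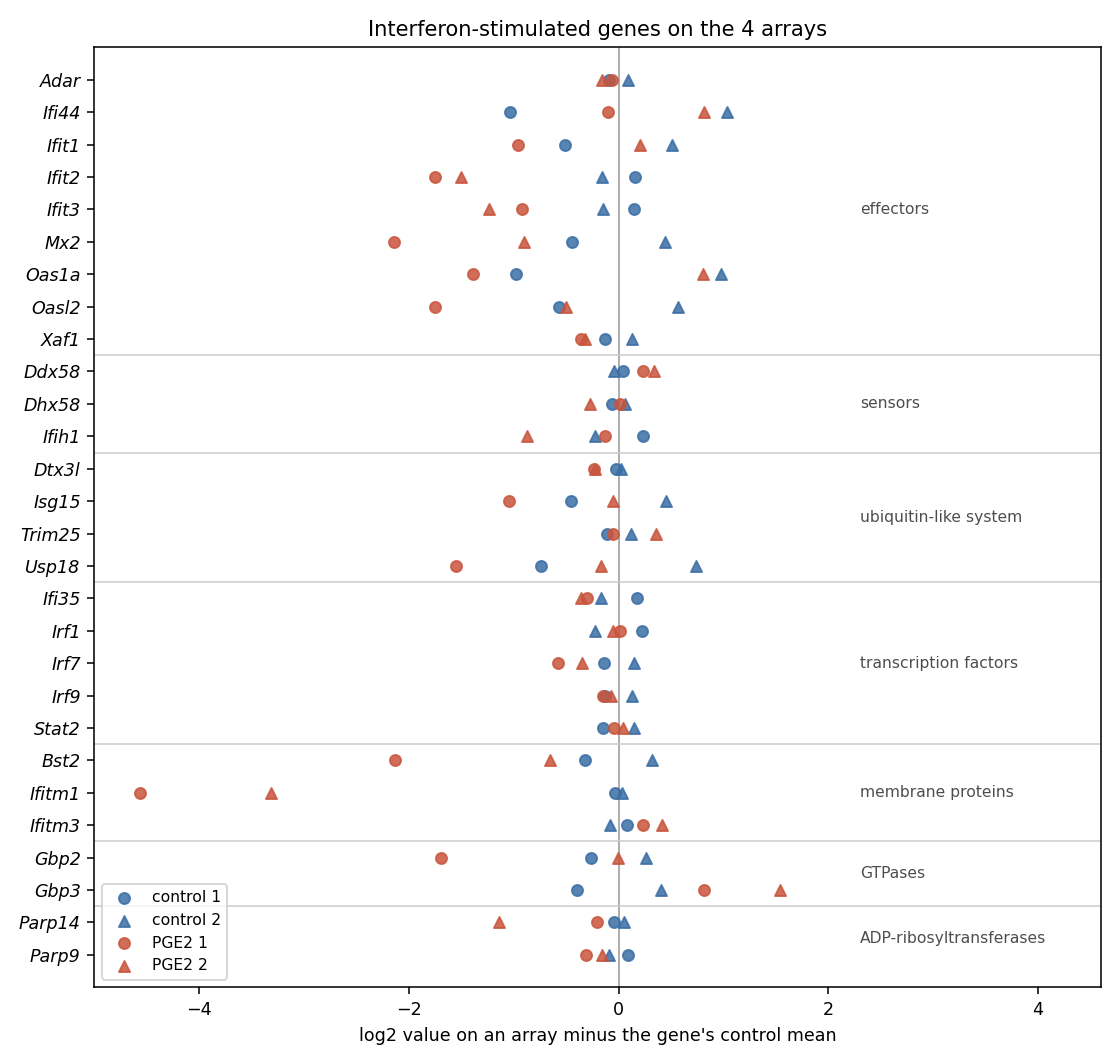
Log2 value of the 28 tested genes on each array minus the mean of the gene's 2 control arrays, grouped by role. Circles are the arrays numbered 1 and triangles those numbered 2, blue for control and red for PGE2. The PGE2 arrays of Ifitm1, Ifit2 and Ifit3 lie to the left of the controls, and those of Gbp3 to the right, while in Isg15, Usp18 and Oas1a the triangle lies to the right of the circle in both groups.

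Among the antiviral effectors, the IFIT proteins bind foreign RNA and hinder its translation. Ifit2 was at -0.80 and -1.12 in the control cultures and at -2.71 and -2.46 with PGE2. This is a change of -1.62 ± 0.20 (95% interval -2.18 to -1.06, adjusted p = 0.0746, limma), outside the threshold. Ifit3 was at 2.40 and 2.10 in control and at 1.33 and 1.01 with PGE2, a change of -1.08 ± 0.21 (adjusted p = 0.133). In both genes the groups did not overlap and each group's own 2 arrays lay within 0.32 of each other. The third member, Ifit1, gave values of -2.12 and -1.10 in control and of -2.57 and -1.40 with PGE2. Its groups overlapped, and its change of -0.38 ± 0.56 (adjusted p = 0.756) was smaller than the distance between the arrays of either group. Ifit3b, a close copy of Ifit3 from the wider list below and named after its values were seen, was at 0.82 and 0.81 in control and at 0.18 and -0.09 with PGE2 (-0.77 ± 0.18, adjusted p = 0.162), and reads of such copies by each other's probes were not tested.

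Mx2 belongs to the dynamin-like GTPases that trap viral particles. Its probe was at -1.66 and -0.78 in control and at -3.36 and -2.12 with PGE2, with no overlap and a change of -1.52 ± 0.55 (adjusted p = 0.277, limma). Neither probe of its relative Mx1 stood well above background on an array. The OAS enzymes make the second messenger that activates RNase L, which cuts RNA. Oas1a was at -3.42 and -1.46 in control and at -3.83 and -1.64 with PGE2, so that 2 arrays of the same group differed by 1.96 and 2.20, far more than the change of -0.29 ± 1.03 (adjusted p = 0.904). Oasl2, an OAS-like protein, was at -2.11 and -0.97 in control and at -3.29 and -2.04 with PGE2, a change of -1.13 ± 0.60 (adjusted p = 0.414). PGE2 culture 2 thus lay above control culture 1, and the groups overlapped. Between arrays of the same number, which no label pairs, Oasl2 differed by -1.18 and -1.07 and Oas1a by -0.41 and -0.17.

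The Oas3 probe stood well above background on no array. The brighter of the Oas2 probes was above it on control 2 and PGE2 2 only, at -3.40 and -4.07, and the other probe on no array. Cmpk2, a mitochondrial nucleotide kinase gene, was above it on control 1 and PGE2 2 at -2.89 and -4.15, and Rsad2, which encodes viperin, on no array. Oasl1 was above it on PGE2 2 alone, at -3.16, on 1 of its probes. These 5 genes and Mx1 were not tested. Probes above background on no array, 24359 in number, differed by a median of -0.52 between the groups under this scaling, and a Rsad2 probe at -0.50 and the Oas3 probe at -0.55 gave about that value.

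The remaining effectors gave smaller values. Xaf1, a proapoptotic factor, was at 1.48 and 1.73 in control and at 1.25 and 1.29 with PGE2, without overlap (-0.34 ± 0.17, adjusted p = 0.397, limma). Its second kept probe gave -0.28, with overlap. Adar, the enzyme that deaminates adenosine in double-stranded RNA, was at 0.33 and 0.52 in control and at 0.36 and 0.27 with PGE2 (-0.11 ± 0.16, adjusted p = 0.762). Ifi44 was the only effector with a fitted change above 0, at 0.36 ± 0.80 (adjusted p = 0.844). Its values were -4.46 and -2.38 in control, the first not above background, and -3.52 and -2.61 with PGE2, so that the control arrays lay on either side of the PGE2 arrays.

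The RNA sensors gave small values of both signs. Ddx58 (RIG-I) was at 1.70 and 1.61 in control and at 1.89 and 1.99 with PGE2, with both PGE2 arrays above both controls (0.28 ± 0.16, adjusted p = 0.421, limma). Its 3 kept probes gave 0.20 to 0.28, and the groups overlapped in the probe at 0.20. Ifih1 (MDA5) was at -0.66 and -1.12 in control and at -1.03 and -1.76 with PGE2, which overlapped (-0.50 ± 0.34, adjusted p = 0.497). Dhx58 (LGP2), which modulates both, was at -2.16 and -2.03 in control and at -2.08 and -2.37 with PGE2 (-0.13 ± 0.18, adjusted p = 0.741), also with overlap.

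**Figure D2:**
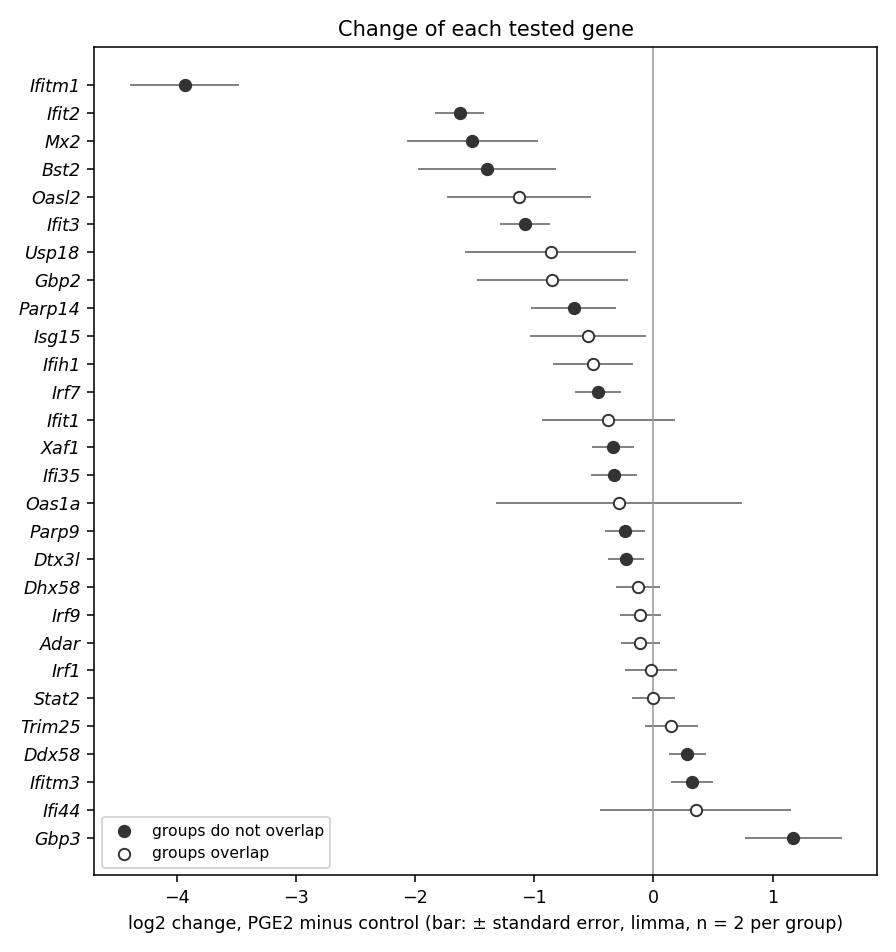
Log2 change of each tested gene, as PGE2 minus control (n = 2 per group), in order of size, with bars of 1 standard error by limma. Filled points are genes whose groups did not overlap and open points those whose groups did. The order runs from Ifitm1 at -3.94 to Gbp3 at 1.18, and no change passed the threshold on the adjusted p.

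In the Isg15 conjugation system, Isg15 and Usp18 differed between cultures of a group, while Dtx3l did so little. Isg15, the ubiquitin-like modifier, was at 2.49 and 3.40 in control and at 1.90 and 2.89 with PGE2. Culture 2 was the brighter one in both groups, by 0.91 and 0.99, and the change of -0.55 ± 0.49 (adjusted p = 0.607, limma) was smaller than that. Usp18, the protease that removes Isg15 from proteins and also restrains the type I receptor, was at -2.90 and -1.43 in control and at -3.72 and -2.34 with PGE2 (-0.86 ± 0.72, adjusted p = 0.582). Its groups overlapped in the same way, with culture 2 brighter by 1.48 in control and 1.38 with PGE2. Between arrays of the same number the differences were -0.59 and -0.51 in Isg15 and -0.82 and -0.91 in Usp18. No label says that equal numbers mark a pair. The ubiquitin ligase Trim25, which acts on RIG-I and Isg15 targets, was at 2.58 and 2.80 in control and at 2.64 and 3.05 with PGE2 (0.15 ± 0.22, adjusted p = 0.751), while a second kept probe gave -0.29. Dtx3l, a ligase that works as a pair with Parp9, had close replicates, at 0.28 and 0.33 in control and at 0.07 and 0.08 with PGE2. Its groups did not overlap and its change was -0.23 ± 0.15 (adjusted p = 0.486).

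Among the transcriptional regulators, Irf7 and Ifi35 were the ones whose groups did not overlap. Irf7, which amplifies interferon production, was at 1.23 and 1.52 in control and at 0.80 and 1.03 with PGE2, without overlap (-0.46 ± 0.20, adjusted p = 0.327, limma). Its second, dimmer probe gave -0.49. Stat2 was at 1.46 and 1.75 in control and at 1.56 and 1.64 with PGE2, and the 95% interval of its change, 0.00 ± 0.18, was -0.50 to 0.50. Irf9 was at 2.01 and 2.26 in control and at 1.99 and 2.06 with PGE2 (-0.11 ± 0.17, interval -0.59 to 0.37). Irf1, a direct target of interferon gamma with the GAS letters shown above, was at 2.47 and 2.02 in control and at 2.26 and 2.19 with PGE2 (-0.019 ± 0.22, interval -0.61 to 0.57). A second kept Irf1 probe, dimmer than the first, gave 0.11, also with overlap. The groups of these 3 genes overlapped, and the intervals hold changes in either direction. Ifi35, a leucine-zipper protein of the same response, was at 4.03 and 3.68 in control and at 3.55 and 3.50 with PGE2, without overlap (-0.33 ± 0.19, adjusted p = 0.443).

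Membrane proteins held the widest range. Ifitm1 encodes a small protein that hinders virus entry by membrane fusion. It was at -0.23 and -0.16 in control and at -4.76 and -3.51 with PGE2, where 1 of 2 arrays (PGE2 2) was above background. Both PGE2 arrays thus lay more than 3 log2 units below the controls. The change was -3.94 ± 0.46 (95% interval -5.19 to -2.68), with an adjusted p = 0.0668 (limma) outside the threshold, and the value rests on 1 probe. PGE2 1 was not above background and the gene passed the filter through control, where it is high. The size of the change, its interval and its adjusted p are therefore not exact. Without PGE2 replicate 1 the change was -3.31, and without PGE2 replicate 2 it was -4.56. In the latter fit the only PGE2 array left was not above background. With normexp background correction and quantile normalization the adjusted p was 0.0406 (limma), but the change was smaller, at -2.47. That is closer to 0 than the whole interval above. It was between 0.0568 and 0.240 in the other settings that kept all 4 arrays and tested Ifitm1. Ifitm3, of the same family of close copies, lay on the other side of 0, at 5.34 and 5.18 in control and at 5.49 and 5.68 with PGE2, without overlap (0.32 ± 0.17, adjusted p = 0.411). Bst2 (tetherin), which holds budding virus at the cell surface, was at 2.22 and 2.85 in control and at 0.40 and 1.88 with PGE2 (-1.40 ± 0.58, adjusted p = 0.319). Its groups did not overlap, but the PGE2 arrays differed by 1.48, more than the groups did.

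The guanylate-binding proteins, GTPases induced mainly by interferon gamma, were on opposite sides. Gbp3 was at -2.21 and -1.41 in control and at -0.99 and -0.27 with PGE2, the largest change above 0 among the members (1.18 ± 0.40, adjusted p = 0.262, limma). Its neighbour in the family, Gbp2, was at 0.61 and 1.13 in control and at -0.82 and 0.87 with PGE2 (-0.85 ± 0.63, adjusted p = 0.539). PGE2 culture 2 lay between the controls in Gbp2, and the value rested mostly on PGE2 culture 1. Both are 1 probe each in a family of close copies. The ADP-ribosyltransferases Parp9 and Parp14 did not overlap between groups. Parp9 was at 0.48 and 0.29 in control and at 0.07 and 0.22 with PGE2 (-0.24 ± 0.17, adjusted p = 0.524), while its second kept probe gave -0.12, with overlap. Parp14 was at -0.27 and -0.18 in control and at -0.43 and -1.36 with PGE2 (-0.67 ± 0.36, adjusted p = 0.413), and here PGE2 culture 2 was the one far from the controls.

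Across the 28 genes, culture 2 was brighter than culture 1 in 20 in control (71.4%, against 39% of all tested genes) and in 21 with PGE2 (75%, against 45.2%), and in both groups in 17 (60.7%, against 24.7%). The 2 arrays of at least 1 group lay farther apart than the group means in 17 of the 28, a share of 60.7% that is near the 60.2% of all tested genes. The median distance between the 2 arrays of a group was 0.307 in control and 0.361 with PGE2, against 0.279 and 0.197 over all tested genes. Both replicates of a group thus differed more in these genes than in the median gene, with no test made of that difference.

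**Figure D3:**
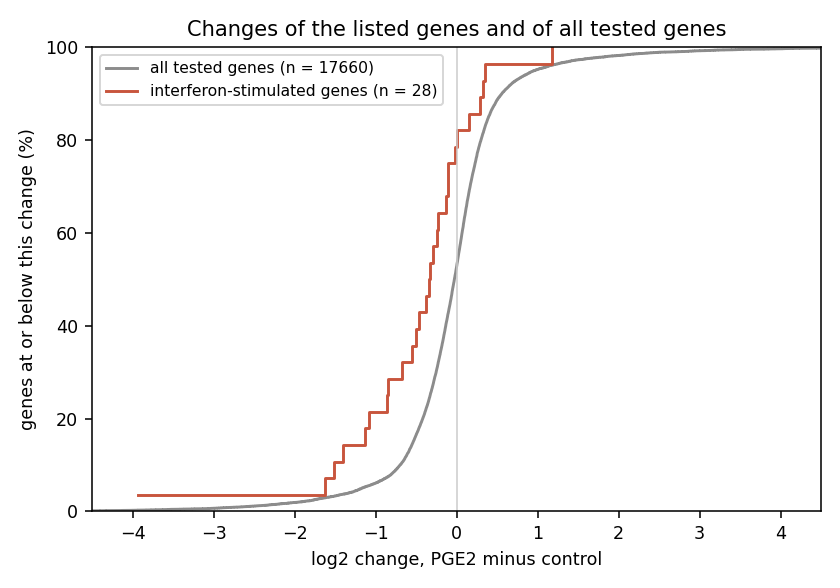
Share of genes at or below a given log2 change, PGE2 minus control, for the 28 interferon-stimulated genes (red) and all 17660 tested genes (grey). The red line lies above the grey around 0, as 78.6% against 52.7% of the genes are below 0.

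The receptors and kinases through which interferon acts were measured in both groups. Of 15 interferon and receptor genes on the array, 7 were tested and 0 passed in either direction. At an unadjusted p under 0.05 (limma), 0 were higher and 1 was lower (14.3%), against 7.31% and 10.5% of all tested genes. Ifnar2 and Ifngr1, subunits of the type I and gamma receptors, gave 0.022 ± 0.17 and -0.021 ± 0.21, Ifngr2 gave -0.14 ± 0.16, and Ifnar1 gave -0.39 ± 0.43. The smallest p of the list was that of the lambda receptor gene Ifnlr1, at -2.11 and -2.82 in control and at -3.87 and -3.62 with PGE2 (-1.28 ± 0.30, adjusted p = 0.164). The interferon beta gene Ifnb1 was dim. Its probe was above background on control 1 and PGE2 1, at -2.92 and -3.13, and on neither array numbered 2, so it was not tested.

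Of 13 tested JAK-STAT genes and inhibitors, 0 passed, and their median was 0.18. At an unadjusted p under 0.05 (limma), 3 were higher (23.1%) and 2 lower (15.4%), against 7.31% and 10.5% of all tested genes. Stat3, which carries signals of interleukin 6 type cytokines, was at 3.77 and 3.70 in control and at 4.85 and 4.80 with PGE2 (1.09 ± 0.15, adjusted p = 0.0847). Socs3, an inhibitor induced through Stat3, was at 0.78 and 0.36 in control and at 2.27 and 2.88 with PGE2 (2.00 ± 0.30, adjusted p = 0.0898). The groups of both genes did not overlap, and both lay outside the threshold. Tyk2, the kinase bound to Ifnar1, gave -0.72 ± 0.19 (adjusted p = 0.190), Jak2 0.41 ± 0.18, Jak1 0.18 ± 0.15, and Socs1, the inhibitor of the gamma pathway, 0.58 ± 0.25 (adjusted p = 0.334).

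A list drawn up for nucleic acid sensing, with adaptors and kinases beside sensors, gave 0 calls among 19 tested genes, with a median of 0.16. Of these, 5 were higher (26.3%) and 1 lower (5.26%) at an unadjusted p under 0.05 (limma), against 7.31% and 10.5% of all tested genes. The 5 are Zbp1, Aim2, Sting1, Tank and Tlr4, not all of which sense nucleic acid. Zbp1 and Aim2 passed the filter through PGE2 alone. Irf3, the factor that first induces interferon beta, gave -0.040 ± 0.16. Zbp1, a sensor of Z-form nucleic acid, was at -0.97 and -1.77 with PGE2 and did not stand well above background in either control culture. Zbp1 was at least 5.48-fold higher with PGE2. This bound sets the PGE2 mean against the dimmest signal above background on the control arrays. The adjusted p = 0.0615 (limma) lay outside the threshold and came from the fit to measured values, with control values below background. Aim2, a sensor of DNA in the cytosol, was likewise dim in control and was at -3.13 and -1.56 with PGE2, at least 2.79-fold higher. Its adjusted p = 0.105 (limma) came from the same fit.

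**Figure D4:**
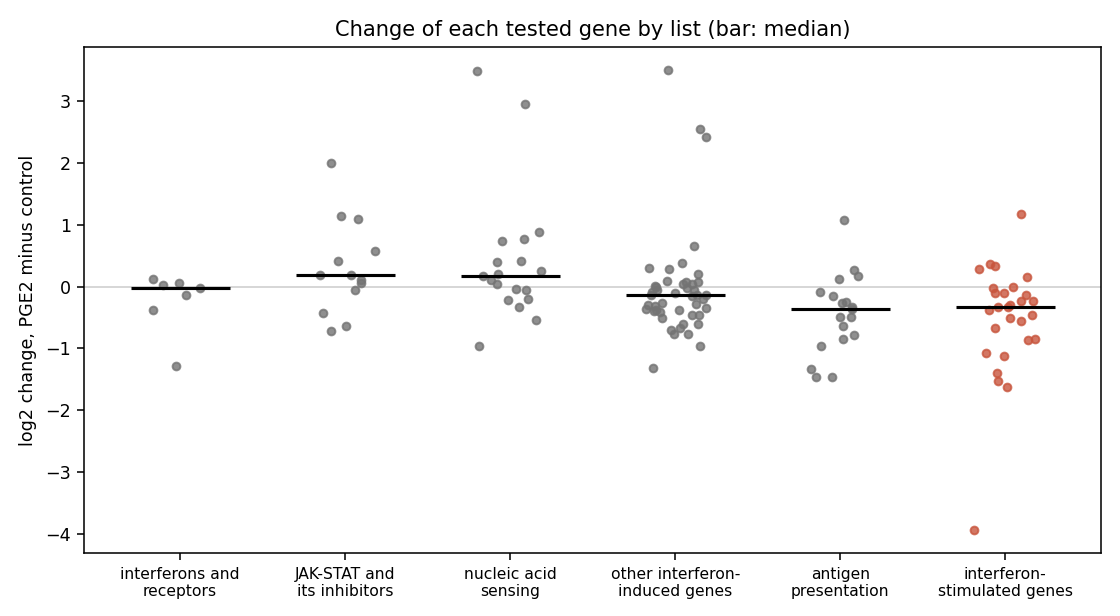
Log2 change, PGE2 minus control, of each tested gene of 5 pathway lists (grey) and of the 28 interferon-stimulated genes (red), with the median of each list as a bar. Medians were 0.18 for JAK-STAT genes, 0.16 for nucleic acid sensing, -0.14 for other interferon-induced genes, -0.36 for antigen presentation and -0.33 for the members.

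A wider list held interferon-induced genes that are not members. Of 46 tested, 0 passed, and 3 were higher and 5 lower at an unadjusted p under 0.05 (limma), shares of 6.52% and 10.9% that are near the 7.31% and 10.5% of all tested genes. The change was below 0 in 32 and the median was -0.14. Eif2ak2, the RNA-activated kinase PKR, was at 0.22 and 0.27 in control and at 0.31 and 0.14 with PGE2 (-0.017 ± 0.16). Phf11d was at 0.82 and 0.79 in control and at -0.48 and -0.55 with PGE2 (-1.32 ± 0.15, adjusted p = 0.0645). Slfn2, a schlafen gene, was at -3.78 and -3.54 in control, with 1 array above background, and at -1.54 and -0.96 with PGE2 (2.41 ± 0.26, adjusted p = 0.0616), where the control array below background makes the size inexact. Ifi27l2a, named here after its values were seen, was at 1.12 and 0.90 in control and at 5.55 and 3.45 with PGE2 (3.49 ± 0.75, adjusted p = 0.150). Both probes of the chemokine gene Cxcl10 stood well above background on no array.

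Antigen presentation genes, which interferon gamma induces, gave 0 calls among 19 tested, with a median of -0.36. At an unadjusted p under 0.05 (limma), 1 was higher (5.26%) and 5 were lower (26.3%), against 7.31% and 10.5% of all tested genes. Psmb9, a subunit of the immunoproteasome that cuts peptides for MHC class I, was at -0.02 and -0.59 in control and at -1.70 and -1.82 with PGE2 (-1.46 ± 0.25, adjusted p = 0.112). Psmb8, another such subunit, gave -0.49 ± 0.15, and Tap1, which carries peptides into the endoplasmic reticulum, -0.84 ± 0.20 (adjusted p = 0.237 and 0.167). In these 3 genes both PGE2 arrays lay below both controls, as in 7 of the 19 (36.8%, against 28.3% of all tested genes). In 1 of the 19 both lay above (5.26%, against 24.0% of all tested genes). This was H2-T23, named after its values were seen, at 4.27 and 3.94 in control and at 5.51 and 4.84 with PGE2 (1.08 ± 0.30, adjusted p = 0.206, limma). Both probes of the transactivator Nlrc5 stood well above background on 0 arrays.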

How the data were processed

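The deposited scanner files hold a processed intensity per spot, read per the file headers by Agilent Feature Extraction 11.5.1.1 (the submitters' processing notes name 12.0.3.1), with 1 slide for all 4 arrays and no saturated non-control spot (0). The deposited series table gave gene symbols, and its scaled intensity, the processed intensity times 1 constant per array (0.945 to 1.07), was an alternative. Its 4 other columns per sample were not used.

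Symbols were updated by gene ID through RefSeq's table of GRCm38.p6. Spots of 1 probe were averaged, probes with outlier flags left out (158 of 56605), and log2 intensity taken minus each array's 75th percentile. Probes well above background on both arrays of a group were kept (26100), with the brightest per gene tested by limma 3.58.1 in R 4.3.3 (2 residual and 2.15 prior degrees of freedom). With 2 cultures per group, p-values rest on few samples and on a variance drawn in part from all tested genes. The steps were tested on simulated data. The members and lists were chosen with earlier results of these data known. All members are named, plus fixed pathway genes, of which some are not reported here, and the 2 smallest p of each list.

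Alternatives were quantile normalization alone and after normexp (offset 50, on median signals, as the files give no mean signal), centring on the median gene, the deposited scale, no filter or one for all 4 arrays, the mean of kept probes, the replicate block and leaving out each array. A slide block was not possible with 1 slide.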

Additional observations from a re-analysis of the deposited data

Results flagged for a closer look

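Among the members' probes that were outside the test, 3 were well above background on a PGE2 array and on no control array, a signal the comparison did not use. An Oasl1 probe was above it on PGE2 2 only, at -3.16 against -5.65 on PGE2 1 and -6.05 and -5.21 on the control arrays, a difference of 1.22 between the group means. The dimmest Ddx58 probe was above it on 1 PGE2 array and differed by 0.0966, and a second Parp14 probe was above it on PGE2 1 and differed by -0.292. None has a replicate above background.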

How the results depend on the processing

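Of 28 members, 17 kept the sign of their change in all 12 alternatives or, for Ifitm1, the 11 that tested it. Ifitm1 was the only member called in any. The count of members called lower was 1 with normexp and quantile normalization, and 0 to 1 over the fits that left out an array. On the authors' scale the median of all genes moved from -0.028 to 0.23 and that of the members to -0.076. The difference between these medians stayed at -0.31, as it must, because that scale shifts the change of every gene by the same amount. Without an array the members' median ranged from -0.54 (without control replicate 1) to -0.17 (without PGE2 replicate 1), against -0.33. Without the filter on dim probes the medians of 34 members and of all genes were both -0.33. With the filter for all 4 arrays, 21 of 26 members were below 0.

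Over all tested genes, 70 were called higher and 48 lower, against 0 and 0 on the authors' scale or without the filter, and 39 and 15 with the filter for all 4 arrays. Without 1 array the counts ranged from 0 to 98 higher and from 0 to 76 lower, where the 0 came from leaving out either control array. At an unadjusted p under 0.05 (limma) there were 4203 on the authors' scale, 2685 with no filter, 2710 without control replicate 1 and 2963 when control replicate 2 was left out.

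The replicate block gave 84 genes called lower, called 0 members (lowest adjusted p = 0.0568, limma) and put 10 lower and 1 higher member at an unadjusted p under 0.05, against 4 and 1. Over all 17660 tested genes the number at such a p also rose, to 4340 from 3152 in the main fit. Same-numbered arrays deviated together at r = 0.424 over all tested genes and r = 0.75 over the members, across genes. In both numbers PGE2 was lower in 19 of the 28 members and higher in 4, against 6961 and 6073 of the 17660 tested genes. With 2 pairs and no label saying that numbers mark a shared batch, no pairing was assumed.

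Signs that turned belonged to small or widely spread changes. On the authors' scale Adar was at 0.15, Dhx58 at 0.13, Dtx3l at 0.028, Irf1 at 0.24, Irf9 at 0.15 and Parp9 at 0.021. With normexp Dhx58 was at 0.0014 and Stat2 at -0.055, and Stat2 was at -0.040 with quantile normalization and at -0.0039 with centring. With the mean of kept probes Irf1 was at 0.046 and Trim25 at -0.067. Without 1 array the ranges were -0.68 to 1.39 for Ifi44, -0.24 to 0.20 for Irf1, -0.15 to 0.15 for Stat2, -0.96 to 0.21 for Ifit1, -1.39 to 0.81 for Oas1a, -0.24 to 0.018 for Irf9, -0.28 to 0.012 for Dhx58 and -0.052 to 0.36 for Trim25. On the authors' scale every change is shifted upward by the same amount, so small changes below 0 turn there by arithmetic. The cause of the other turns was not tested.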
